A study of Homo sapiens with 8 samples.

Results

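The peaks described here lie in exons of non-coding transcripts. They were taken from lists of binding sites of 2 RNA-binding proteins, PTBP1 and IGF2BP2, in A172, a human glioma cell line. The members are all peaks whose annotated transcript region is "exon", a label the files use beside coding sequence, 5′ UTR, 3′ UTR, intron and no gene. They number 34191 of 1843422 peaks (1.85%). The PTBP1 lists (replicates 1 and 2) hold 10718 and 9899 of them, the IGF2BP2 lists 6930 and 6644. They carry the names of 3436 genes.

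Binding was measured by eCLIP, in which RNA crosslinked to a protein is pulled down with an antibody and sequenced next to an input sample. The 8 samples form 4 groups of 2, an immunoprecipitation (IP) and an input for each protein. Cells of all groups carried 4-thiouridine (500 µM for 3 h) and received 2 doses of 400 mJ/cm2 at 365 nm. Input was 2% of the lysate. The RNA came from membrane at 55 to 130 kDa for PTBP1 and 65 to 140 kDa for IGF2BP2, and library fragments measured 175 to 350 bp. The line carried no genetic change named in the labels, and every group shared the 4-thiouridine label. The 4 input libraries are not analysed here as such. Nothing in the labels says that the replicates came from separate cultures, so each spread given is that between these libraries.

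PTBP1, the polypyrimidine tract-binding protein, binds pyrimidine-rich RNA and represses or activates alternative exons in the nucleus. IGF2BP2 belongs to the insulin-like growth factor 2 mRNA-binding proteins, which bind and stabilize mature mRNAs in the cytoplasm. Non-coding exons come from long non-coding RNAs, transcribed pseudogenes, host genes of small RNAs, structured RNAs such as spliceosomal RNAs, and transcripts of protein-coding genes that RefSeq lists as non-coding, many of them spliced variants with an early stop codon.

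Sequences could be read for peaks on RefSeq microRNA hairpins and on RefSeq promoter windows (GRCh38.p14). Members lay on 68 of the 1562 hairpins, on 9 of them in all 4 lists. The hairpins of MIR12136 (chr1:632615-632685, minus strand) and MIR632 (chr17:32350109-32350202, plus strand) are shown because they held the enriched peaks seen in both replicates of a protein. Capitals run from the first to the last base covered by peaks of that protein found in both of its lists, and in MIR12136 a single base within them lies in no peak. MIR92B (chr1:155195177-155195272, plus strand) is shown for contrast, with log2 values below 0 in all 4 lists. These hairpins and the pairs that follow were chosen after their values were seen.
MIR12136, IGF2BP2: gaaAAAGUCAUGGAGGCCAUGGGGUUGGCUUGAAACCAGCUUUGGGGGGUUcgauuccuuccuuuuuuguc
MIR632, PTBP1: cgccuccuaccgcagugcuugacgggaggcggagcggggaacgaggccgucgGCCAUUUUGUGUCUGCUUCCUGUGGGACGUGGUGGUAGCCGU
MIR632, IGF2BP2: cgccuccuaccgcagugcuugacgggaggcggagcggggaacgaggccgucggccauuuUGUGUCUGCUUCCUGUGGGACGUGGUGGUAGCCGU
MIR92B, PTBP1: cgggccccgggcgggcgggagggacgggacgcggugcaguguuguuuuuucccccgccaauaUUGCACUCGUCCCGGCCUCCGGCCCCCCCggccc

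Peaks on both strands of 1 place were common among the members, and 2 such pairs are shown for comparison. In LINC00987 the PTBP1 replicate 1 list holds chr12:9240063-9240095 on the plus strand and chr12:9240077-9240101 on the minus strand. In TERF2IP, which encodes a telomere protein, the IGF2BP2 replicate 1 list holds chr16:75647830-75647871 (plus) and chr16:75647843-75647881 (minus). Each is written 5′ to 3′ on its own strand, and capitals mark the bases that its partner also covers.
LINC00987, plus: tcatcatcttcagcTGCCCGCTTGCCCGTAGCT
LINC00987, minus: tgagtcAGCTACGGGCAAGCGGGCA
TERF2IP, plus: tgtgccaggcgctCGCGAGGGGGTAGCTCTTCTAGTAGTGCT
TERF2IP, minus: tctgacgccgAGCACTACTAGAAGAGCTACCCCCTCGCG
The paired strands shared 19 nt in LINC00987 and 29 nt in TERF2IP. The LINC00987 peaks held 28 and 26 IP reads with 2 input reads each. Both TERF2IP peaks held 14 IP reads and 3 input reads.

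Each peak carries a log2 ratio of IP to input reads plus a constant of its library, and a −log10 p. The constant was -0.30 and -0.08 in the PTBP1 libraries and 1.74 and 1.90 in the IGF2BP2 libraries. A peak is called enriched when its log2 and its −log10 p are both at least 3, so fewer IP reads per input read sufficed in IGF2BP2 than in PTBP1. The median member rested on 20 and 16 IP reads in PTBP1 and on 5 in both IGF2BP2 lists, among peaks with recovered reads. Median lengths were 42 and 40 nt in PTBP1 and 23 nt in both IGF2BP2 lists. The label held against RefSeq: of the 1405 protein-coding genes with a member, 98.9% list a non-coding transcript, against 24.9% of all protein-coding genes in the files. Peaks in protein-coding genes made up 32.9% of the members.

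Exons of non-coding transcripts took a slightly smaller share of the PTBP1 peaks than of the IGF2BP2 peaks. They were 1.78% and 1.84% of the PTBP1 peaks and 1.91% and 1.95% of the IGF2BP2 peaks. The means were 1.81% ± 0.037 (SD, n = 2) and 1.93% ± 0.025 (SD, n = 2), and the 2 proteins did not overlap. The difference of -0.12 percentage points had p = 0.333 in a two-sided exact permutation test, the smallest p that 2 libraries against 2 allow. Among enriched peaks PTBP1 had a share of 2.10% ± 0.031 (SD, n = 2) and IGF2BP2 one of 2.22% ± 0.045 (SD, n = 2), with the same exact p = 0.333. Both directions turned when exons of ribosomal RNA, structured small RNA and protein-coding genes were left out. This alternative was added with the values known. The remaining exons were 1.25% of the PTBP1 and 1.15% of the IGF2BP2 peaks, and 1.56% and 1.05% of the enriched ones.

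A member was enriched more often than an average peak of its list. In PTBP1, 3.40% (363 peaks) and 3.26% (322 peaks) of the members were enriched, against a background of 2.91% and 2.82% over all peaks. In IGF2BP2, 10.9% (750 peaks) and 10.6% (698 peaks) were enriched, against 9.19% and 9.36%. Mean shares of 3.33% ± 0.095 (SD, n = 2) and 10.7% ± 0.22 (SD, n = 2) did not overlap (exact permutation p = 0.333), and the unequal constants stand between them. Against introns, the members were enriched more often by 0.97 and 0.89 points in PTBP1 and by 2.18 and 1.74 points in IGF2BP2. Coding sequence stood above them in PTBP1, at 5.92% and 5.53%, and 3′ UTRs stood above them in IGF2BP2, at 20.9% in both lists.

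**Figure D1:**
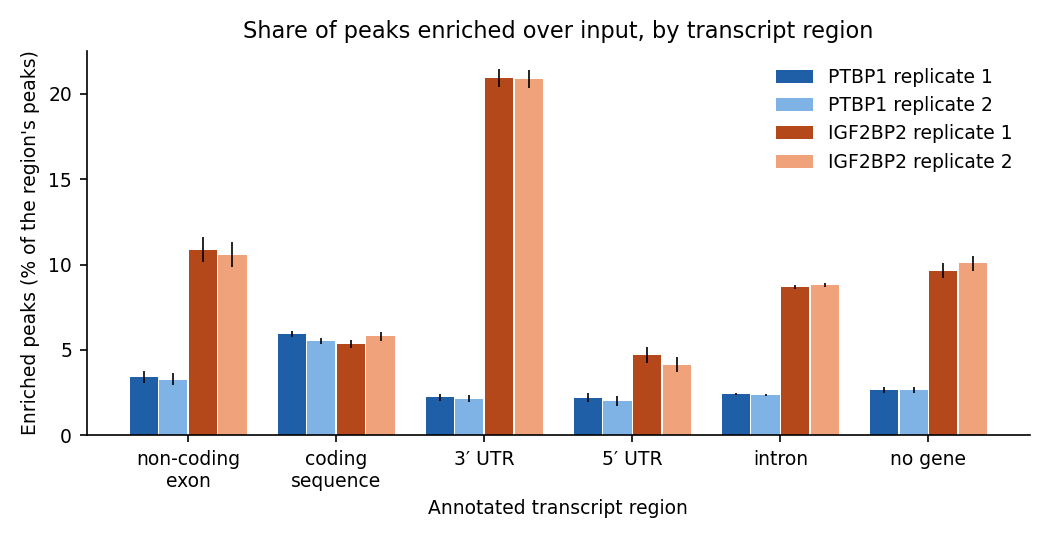
Share of the peaks of each transcript region (x axis) that were enriched (y axis, percent), per library, with 95% Wilson intervals for counting error. Non-coding exons lie between 3′ UTR and coding sequence in the PTBP1 lists (3.40% and 3.26%), and between intron and 3′ UTR in the IGF2BP2 lists (10.9% and 10.6%).

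The excess over other peaks moved with read depth in PTBP1. Among peaks of 10 to 19 IP reads, 1.65% and 3.39% of the members were enriched in replicates 1 and 2, against 2.65% and 4.46% of all other peaks. Among peaks of 20 to 49 reads the shares were 7.85% and 7.26%, against 10.2% and 9.79%. At 50 or more reads they were 8.27% and 9.23%, against 8.71% and 9.10%. So at like depth the members of PTBP1 were enriched less often in 5 of these 6 comparisons. In IGF2BP2 the direction varied with depth. Members of 4 to 9 reads, the largest of these classes, were enriched in 12.1% and 11.5% of cases, against 12.9% and 13.0% of the others. Those of 10 to 19 reads were enriched in 29.8% and 29.9% of cases, against 26.9% and 28.6% of the others. Those of 20 to 49 reads were enriched in 25.8% of cases in both lists, against 19.8% and 19.7%. At 50 or more reads the shares were 17.1% and 23.3%, against 18.5% and 17.9%.

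Of the members, 66.0% and 70.4% in PTBP1 and 57.0% and 60.3% in IGF2BP2 overlapped a peak of the other replicate on the same strand by at least 1 nt. Intron peaks were found again in 52.8% and 59.0%, and in 46.3% and 49.8%. At like depth the gap was smaller in PTBP1: among members of 4 to 9 IP reads, 37.8% and 48.4% were found again, against 37.4% and 48.5% of the other peaks. In IGF2BP2 the same class gave 52.0% and 57.6%, against 47.9% and 52.0%. Peaks of the other protein overlapped 38.3% and 39.3% of the members in PTBP1 and 57.6% and 57.4% in IGF2BP2. These shares lay above those of introns (24.5% and 25.4%, and 41.7% in both IGF2BP2 lists). They lay below those of 3′ UTRs in PTBP1 (48.8% and 48.9%) and of coding sequence in IGF2BP2 (65.7% and 65.4%).

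**Figure D2:**
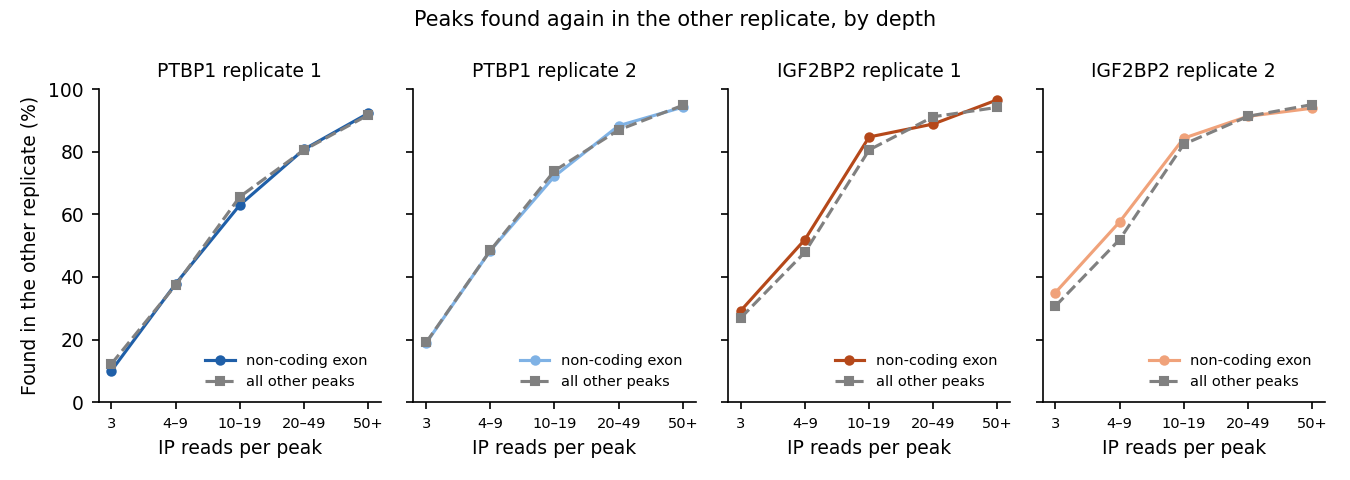
Share of peaks found again in the other replicate (y axis, percent) by IP reads per peak (x axis), for non-coding exons (circles) and all other peaks (grey squares), 1 panel per library. In the PTBP1 panels both lines run together, from 10.1% of the members with 3 reads to 92.2% of those with 50 or more in replicate 1. In the IGF2BP2 panels members stand slightly higher below 20 reads.

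Overlapping member peaks of both replicates were joined to regions. PTBP1 had 6163 such regions in 2074 genes, and 153 of them (2.48%, 103 genes) were enriched in both replicates, against a background of 2.30% over all regions. IGF2BP2 had 3610 regions in 1221 genes, and 273 of them (7.56%, 161 genes) were enriched, against 5.95%. Of these, 7 of the 153 PTBP1 regions and 7 of the 273 IGF2BP2 regions overlapped peaks of the other protein that were enriched in both its lists. No peak of the other protein lay on 90 of the enriched PTBP1 regions (58.8%) and 119 of the enriched IGF2BP2 regions (43.6%). Over enriched regions of any kind the shares were 68.1% and 55.4%.

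Classes of genes, set by symbol and RefSeq type, took unequal shares. Protein-coding genes gave 29.2% ± 0.65 (SD, n = 2) of the PTBP1 members and 38.2% ± 0.24 (SD, n = 2) of the IGF2BP2 members. Pseudogenes gave 21.4% ± 0.21 (SD, n = 2) and 16.6% ± 0.14 (SD, n = 2). Long intergenic genes named LINC gave 8.41% ± 0.026 (SD, n = 2) and 6.53% ± 0.49 (SD, n = 2). Over 12 classes and 24 tests of shares and enriched shares, 20 reached the exact permutation p = 0.333, the smallest possible, which is 0.40 after Benjamini-Hochberg adjustment.

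**Figure D3:**
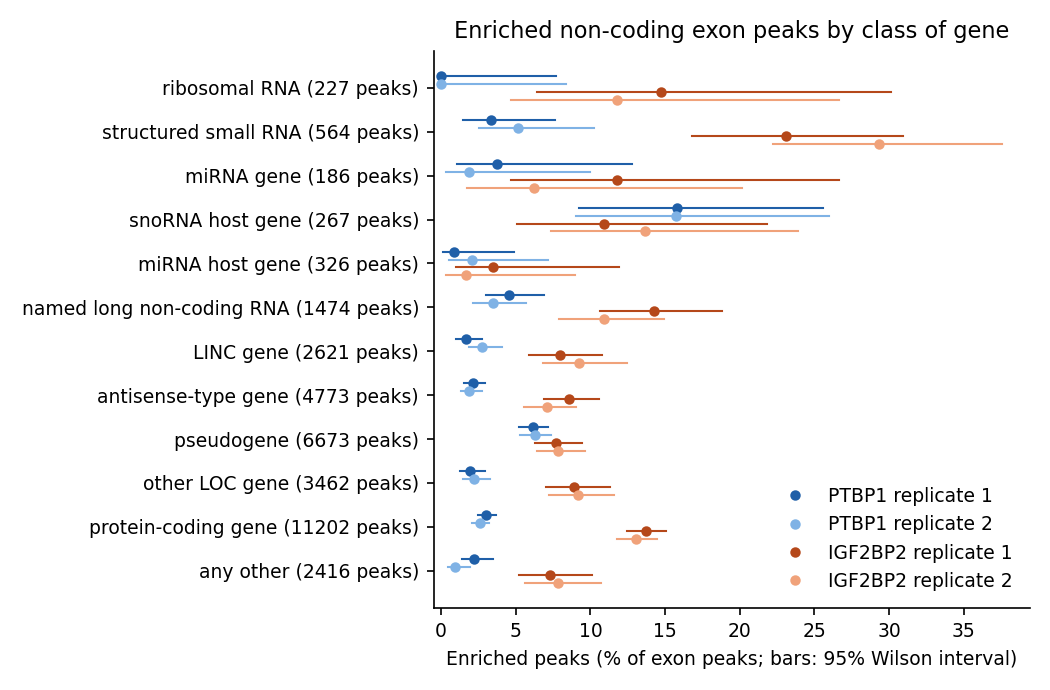
Enriched share of the exon peaks (x axis, percent, with 95% Wilson intervals) in each class of gene (y axis, with its peaks over the 4 lists). Structured small RNAs reach 23.1% and 29.3% in IGF2BP2, and snoRNA host genes 15.8% and 15.7% in PTBP1, a share that rested on GAS5 and SNHG10.

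Among long non-coding RNAs with names of their own, KCNQ1OT1 held the most peaks. It is an imprinted antisense transcript of the KCNQ1 locus and had 250 and 238 peaks in PTBP1 and 163 and 187 in IGF2BP2. Most had a counterpart on the other strand (198, 188, 108 and 130 peaks in the same order). All 6 of its IGF2BP2 regions enriched in both replicates were mirrored in this way. NEAT1, the scaffold of nuclear paraspeckles, had 75 and 72 peaks in PTBP1, 57 and 56 in IGF2BP2, and none mirrored.

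NEAT1 held 3 regions enriched in both replicates of each protein. The highest was a PTBP1 region at chr11:65427043-65427104, with 193 IP reads to 1 input read and 116 to 3. No IGF2BP2 peak lay on it. Elsewhere in the gene chr11:65443842-65443867 (PTBP1, 84 to 4 and 60 to 3 reads) overlapped chr11:65443833-65443852 (IGF2BP2, 31 to 3 and 22 to 3 reads). That place was enriched in all 4 libraries.

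MALAT1, an abundant RNA of nuclear speckles, held 6 enriched IGF2BP2 regions and 2 enriched PTBP1 regions. At chr11:65501199-65501220 IGF2BP2 had 54 IP to 6 input reads and 44 to 8, and no PTBP1 peak lay there. PTBP1 was enriched at chr11:65504821-65504837, with 267 to 19 and 177 to 14 reads. Its other region, and 1 of the 6 of IGF2BP2, lay on the strand opposite to the gene. NORAD, a cytoplasmic RNA that binds Pumilio proteins, had 3 enriched IGF2BP2 regions, led by chr20:36047432-36047515 with 92 to 5 and 79 to 5 reads. PTBP1 was enriched elsewhere in it, at chr20:36048660-36048740, with 111 to 6 and 99 to 3 reads. NORAD was named after its values were seen.

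Host genes of small nucleolar RNAs, whose introns carry RNAs that guide rRNA modification, had an enriched share of 15.8% (12 of 76 peaks) and 15.7% (11 of 70) in PTBP1, and of 10.9% and 13.6% in IGF2BP2. The PTBP1 share rested on GAS5 and SNHG10. Without them, a choice made with the values known, it was 4.55% (3 of 66) and 6.45% (4 of 62). GAS5 led them, and all 3 of its PTBP1 regions were enriched in both replicates. Its region at chr1:173866991-173867043 had 100 IP to 2 input reads and 98 to 2, and that at chr1:173866761-173866796 had 96 to 2 and 66 to 2. GAS5 held 5 and 3 PTBP1 peaks, all enriched, and 1 and 0 IGF2BP2 peaks, none enriched.

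SNHG14 and SNHG7 differed in which lists reached them. SNHG14, the long host transcript of the imprinted Prader-Willi region, held 15 and 11 PTBP1 peaks and 0 in both IGF2BP2 lists, and none of its peaks was enriched. SNHG7 had 7 and 10 PTBP1 peaks and 13 and 10 of IGF2BP2, with 1 enriched PTBP1 region. SNHG10, named after its values were seen, carried an enriched PTBP1 region on each strand at the same place, chr14:95533522-95533630 (minus) and chr14:95533524-95533628 (plus). Both reached the ceiling of 400 of the deposited −log10 p, where reads could not be recovered.

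Pseudogenes held 67 of the 153 enriched PTBP1 regions, in 37 genes. Enriched were 6.13% and 6.26% of their PTBP1 peaks, about the size of the coding-sequence share, and 7.73% and 7.86% of their IGF2BP2 peaks, below the mean of that protein. Their median PTBP1 depth was 30 and 22 IP reads, above that of all members. The part of depth in the result was not tested. Reads of near-identical copies can be placed on either copy, so the gene a peak is assigned to is uncertain for this class.

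The leading PTBP1 region of all members lay in NBPF25P, at chr1:145584756-145584808 (minus), with 239 IP to 2 input reads and 197 to 1. GTF2IP1, STAG3L2 and STAG3L3, copies of the transcription factor gene GTF2I and the cohesin gene STAG3, held 4 enriched PTBP1 regions each and no enriched IGF2BP2 region. In STAG3L3, chr7:73003094-73003137 had 178 to 5 and 134 to 3 reads. HNRNPA1P10, a copy of the splicing factor gene HNRNPA1, held 3 for PTBP1 and 1 for IGF2BP2. AHSA2P held a pair on both strands, chr2:61188563-61188709 (plus) and chr2:61188590-61188711 (minus), each with 65 to 1 and 49 to 1 reads.

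Of the 37 pseudogenes with an enriched PTBP1 region, 18 carry the symbol of a parent gene that itself has reproducible PTBP1 regions outside non-coding exons, 13 parents in all. Of these 13, 9 held an enriched PTBP1 region themselves, for example ANXA2 (13 regions), BMS1 (7), GTF2I (6) and SMG1 (5). Of all 9111 genes with a PTBP1 region in coding sequence, 24.2% held an enriched region outside non-coding exons. For IGF2BP2 the counts were 3 of 5 parents, and 39.4% of 4966 such genes. Parents were not matched to these genes by number of regions. Reads of parent and copy cannot be told apart here. The fusion-like records PKD1P5-LOC105376752, PKD1P4-NPIPA8 and PKD1P3-NPIPA1 had many peaks (75 and 69, 62 and 58, and 52 and 45 in PTBP1) but 1, 1 and 0 enriched PTBP1 regions and none of IGF2BP2.

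Protein-coding genes gave 151 of the 273 enriched IGF2BP2 regions (89 genes) and 36 of the 153 of PTBP1 (31 genes). Enriched were 13.7% and 13.1% of their IGF2BP2 peaks, and 3.02% and 2.59% of their PTBP1 peaks. LASP1, an actin-binding protein gene, held 7 enriched IGF2BP2 regions, and 4 of these lay opposite to the gene. BCL2L1, which encodes the apoptosis regulator BCL-X, held 5, all on its own strand. At chr20:31665392-31665417 it had 53 IP to 2 input reads and 49 to 2, and no PTBP1 peak lay there. CANX, the gene of the endoplasmic reticulum chaperone calnexin, had 3 peaks in each IGF2BP2 list, all enriched, with 19 to 1 and 17 to 1 reads at chr5:179729325-179729370. ZNF213, a zinc finger gene, had 105 to 5 and 87 to 4 reads at chr16:3142448-3142560.

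Among PTBP1 regions in protein-coding genes, NPM1 and TPM3 led. NPM1 encodes a nucleolar chaperone and had 610 IP to 8 input reads and 312 to 3 at chr5:171392712-171392752. IGF2BP2 was enriched at another exon of NPM1, chr5:171410783-171410810, with 8 to 1 and 10 to 1 reads. TPM3, a tropomyosin gene, had 96 to 1 and 102 to 2 reads at chr1:154170400-154170470 and no IGF2BP2 peak in any exon counted here.

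A few other PTBP1 regions are given as examples, picked after their values were seen and standing for no group. The splicing factor gene SRSF3 had 95 to 5 and 56 to 5 reads at chr6:36596873-36596969. HNRNPDL had 132 to 10 and 100 to 10 at chr4:82426064-82426129, and the splicing kinase gene CLK1 had 66 to 1 and 65 to 3 at chr2:200860151-200860253. SFPQ held 2 such regions. At these regions of SFPQ and HNRNPDL no IGF2BP2 peak was listed, and at those of SRSF3 and CLK1 a single IGF2BP2 library had a peak that was not enriched.

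TUBB, a beta-tubulin gene, was enriched at 1 place in all 4 libraries. PTBP1 had 95 to 1 and 66 to 2 reads at chr6:30725204-30725294, and IGF2BP2 had 77 to 2 and 53 to 5 reads at chr6:30725206-30725239. A further 3 TUBB regions were enriched for IGF2BP2 in both replicates. ACTG1, a cytoplasmic actin gene named after its values were seen, had 24 to 1 and 31 to 2 reads of IGF2BP2 at chr17:81510239-81510254.

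Structured small RNAs had the highest enriched share of all classes in the IGF2BP2 lists. Enriched were 31 of 134 peaks (23.1%) and 39 of 133 (29.3%), against 5 of 149 (3.36%) and 7 of 136 (5.15%) in PTBP1. Their median IGF2BP2 depth was 35 and 63.5 IP reads, above the 5 of all members. Among all IGF2BP2 members of at least 10 IP reads the mean enriched share was 27.5%. The part of depth in the share of this class was not tested. SNORD3A, a copy of the U3 RNA that acts in rRNA maturation, had 6 and 5 IGF2BP2 peaks, of which 6 and 4 were enriched, and 3 and 3 PTBP1 peaks, none enriched. Its region at chr17:19188176-19188203 had a log2 of 5.13 and 5.16. The U3 copies SNORD3B-1, SNORD3C and SNORD3D, named after their values were seen, held enriched regions as well, and near-identical copies leave the placement of their reads uncertain. SNORD3B-1 had 7 and 8 enriched IGF2BP2 peaks, and RNU6-2 had 5 and 13. Other genes of the class went the other way. RN7SL2, RN7SL3, RPPH1, RN7SK and RMRP had no enriched IGF2BP2 peak, and their median log2 lay below 0 in both lists (-3.64 and -3.55 in RN7SL2, -0.54 and -0.52 in RMRP). These values depend on the constant inferred for each chromosome. On chromosome 14 it was 3.81 and 3.92 in IGF2BP2 and 2.53 and 2.75 in PTBP1. These lie above the library constants, so putting scores on 1 scale lowered those of chromosome 14. The part of this shift in the values of these genes was not tested.

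RNU1-1, the U1 spliceosomal RNA, held the most peaks of this class, 39 and 30 in PTBP1 and 39 and 35 in IGF2BP2. Only peaks on the main chromosomes could be called: 0 of 36 and 0 of 27 were enriched in PTBP1, and 4 of 36 and 4 of 32 in IGF2BP2. RNU6-2, the U6 spliceosomal RNA, was enriched for both proteins at chr2:174557965-174558061, with 123 to 9 and 109 to 8 reads in PTBP1 and 68 to 20 and 65 to 11 in IGF2BP2 over nearly the same stretch. An entry on the opposite strand of that place had the same PTBP1 reads. RNU6-2 also held a region at chr15:67840036-67840041, and some RNU1-1 peaks lay off the main chromosomes, so each symbol covers several places. The placement of their reads among copies is uncertain. RNA from the 45S ribosomal precursor RNA45SN1 had 57 and 52 PTBP1 peaks and 44 and 43 IGF2BP2 peaks. Of those that could be called, 0 of 42 and 0 of 38 were enriched in PTBP1, and 5 of 31 and 4 of 29 in IGF2BP2. An enriched IGF2BP2 region of this gene lay on chromosome 21. The constants inferred there were 2.36 and 2.55 in PTBP1 and 2.22 and 2.38 in IGF2BP2. The library constants were -0.30 and -0.08, and 1.74 and 1.90, so putting scores on 1 scale lowered those of PTBP1 more. The part of this shift in the ribosomal RNA values was not tested. Over all ribosomal RNA genes, 0 of 46 and 0 of 42 PTBP1 peaks on the main chromosomes were enriched, which allows shares of up to 7.71% and 8.38% (upper Wilson limits, for counting error only).

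MicroRNA genes held 186 members. MIR12136 led the IGF2BP2 regions of all members: chr1:632641-632682 (minus) had a log2 of 6.71 and 6.82 and reached the ceiling of the −log10 p in both replicates. On its hairpin, printed above, the outermost IGF2BP2 peaks run from base 4 to base 51. PTBP1 replicate 1 had 86 IP to 23 input reads there, a log2 of 1.60, and replicate 2 had no peak on the hairpin. The locus lies between the nuclear copies of mitochondrial genes MTCO1P12 and MTCO2P12 in RefSeq, and the part of near-identical mitochondrial sequence in these reads was not tested.

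MIR632 was enriched in both PTBP1 libraries (53 to 2 and 36 to 2 reads). In IGF2BP2 replicate 1 it had 7 to 1 reads and was enriched, and in replicate 2 it had 6 to 2 reads and was not. Covered bases ran from 53 to 94 in PTBP1 and from 60 to 94 in IGF2BP2, and the peaks went on past the 3′ end of the hairpin. Peaks on MIR92B had log2 values of -2.86 and -1.98 in PTBP1 and -1.70 and -0.65 in IGF2BP2. All 4 values lie below 0. Over all hairpins 2 of 53 and 1 of 42 PTBP1 peaks were enriched, and 4 of 27 and 2 of 24 of IGF2BP2.

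Peak density per gene compares how many of a list's peaks fall in a gene's non-coding exons. It is the log2 of (peaks + 0.5) per 10000 peaks of the list, and was fitted with limma over all genes and regions. Of 981 genes with at least 10 exon peaks, 47 had a higher density in PTBP1 (4.79%) and 79 in IGF2BP2 (8.05%) at a limma adjusted p under 0.05. Over all 23599 gene and region entries 23.6% passed, 11.3% toward PTBP1 and 12.3% toward IGF2BP2, so calls were rarer among the members. The median difference was -0.27 for exons and -0.03 over all entries. Protein-coding genes, 341 of the 981 tested, gave 47 of the 79 genes higher in IGF2BP2 and 6 of the 47 higher in PTBP1. Pseudogenes, 204 of the 981, gave 5 and 18. These counts include genes that passed the filter only through the lists of 1 protein, described next.

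Of the 47 genes higher in PTBP1, 36 had no IGF2BP2 exon peak at all. These passed the filter of 10 peaks only through the PTBP1 lists, and every tested gene with 0 IGF2BP2 peaks was called, so the 36 calls are no support for a difference. Their fitted differences depend on the pseudocount and only peak numbers are given. LINC02591 held 22 and 16 PTBP1 peaks, SNHG14 15 and 11, LOC653513 12 and 11, LOC440311 7 and 13, MESD 8 and 9, and PPP4R1L 8 and 8. Neither IGF2BP2 list held an exon peak of any of them. Of these genes only LOC653513 (4 and 3 peaks) and PPP4R1L (1 and 0) had enriched ones. MESD, a chaperone gene of the Wnt pathway, changed sign when the peaks of all its regions were counted together (log2 difference of -0.20).

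ITPRIPL2 had a higher density in IGF2BP2. It held 8 and 8 exon peaks in PTBP1 and 35 and 28 in IGF2BP2, with no overlap. Its log2 difference was -2.60 (SE 0.22, limma adjusted p = 0.0073). TRIO, a guanine nucleotide exchange factor gene, had 1 and 2 against 11 and 13. FURIN, a proprotein convertase gene, had 1 and 2 against 10 and 9, and the receptor gene FGFR3 had 0 and 1 against 6 and 8. All 4 passed the threshold under each alternative that kept all libraries and gave them a value. TRIO, FURIN and FGFR3 passed the filter of 10 peaks only through the IGF2BP2 lists. Their fitted differences depend on the pseudocount, so these 3 calls are no support for a difference. The 1 tested gene with 0 PTBP1 peaks was likewise called higher in IGF2BP2.

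BCL2L1 had 8 and 6 exon peaks in PTBP1 and 13 and 13 in IGF2BP2 (log2 difference of -1.55, SE 0.28, limma adjusted p = 0.018), a call lost without PTBP1 replicate 2. LASP1 had 35 and 32 against 38 and 32 (-0.75, SE 0.15, limma adjusted p = 0.025), lost without either PTBP1 replicate. RNU1-1 had -0.80 (SE 0.16, limma adjusted p = 0.023), also lost without PTBP1 replicate 2. For KCNQ1OT1, NEAT1 and MALAT1 the differences were -0.21, -0.32 and 0.44, and none passed the threshold (limma adjusted p = 0.23, 0.11 and 0.13).

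**Figure D4:**
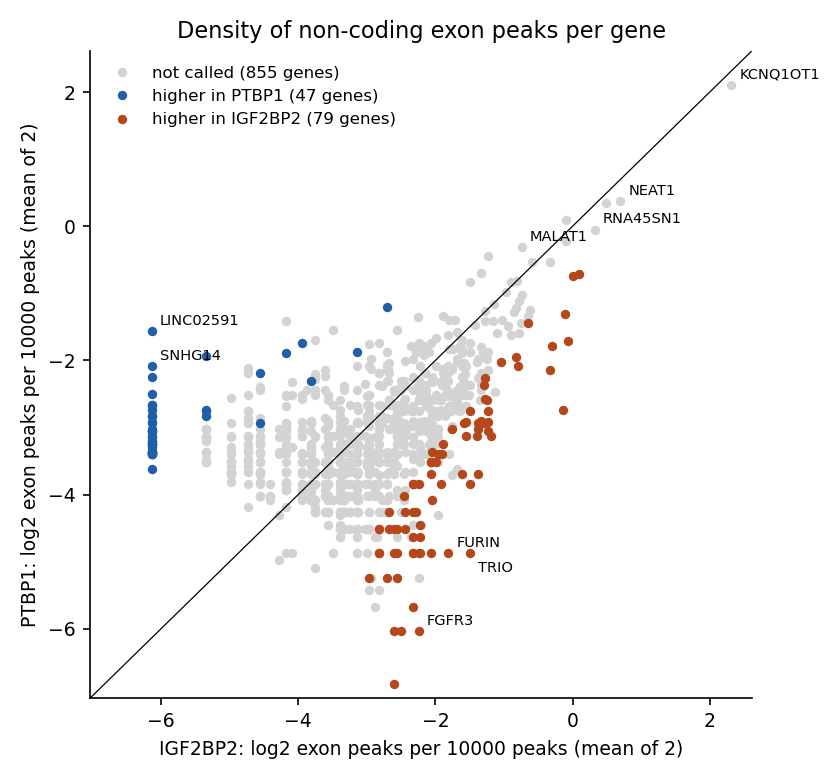
Density of non-coding exon peaks in 981 genes, as mean log2 peaks per 10000 peaks of the list, for IGF2BP2 (x axis) and PTBP1 (y axis). Blue and red mark the 47 and 79 genes that passed, and the line marks equal density. The column of blue points at the left holds genes with 0 IGF2BP2 peaks.

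The calls moved with single libraries. Without PTBP1 replicate 1 or 2 the genes higher in IGF2BP2 fell to 31 and 35. Without IGF2BP2 replicate 1 or 2 they rose to 199 and 180, and those higher in PTBP1 to 141 and 129.

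Within genes that had at least 3 peaks in both non-coding exons and introns, members scored close to introns in PTBP1 and below them in IGF2BP2. The median difference of log2 in genes that RefSeq does not list as protein-coding was 0.13 and 0.09 in PTBP1 (487 and 440 genes) and -0.27 and -0.42 in IGF2BP2 (244 and 232 genes). In protein-coding genes it was -0.08 and -0.12, and -0.13 and -0.29. Enriched shares were not compared within genes.

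The strand of a peak often went against its gene. RefSeq's promoter and hairpin tables give a strand for 17873 members, and 3287 of them lay on the opposite one. The shares were 18.5% and 18.6% in PTBP1 and 18.8% and 17.5% in IGF2BP2. They were 7.50% and 7.56%, and 7.20% in both IGF2BP2 lists, for intron peaks. For 3′ UTRs they were 17.0% and 16.7% in PTBP1, close to the members, and 12.6% in both IGF2BP2 lists. For 5′ UTRs they were 11.1% and 11.4% in PTBP1. Antisense-type genes (32.5% to 37.7% by list) and other genes with LOC names (32.0% to 41.1%) held the highest shares. How the deposited annotation chose between overlapping genes is not given in the sources used here.

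Mirrored peaks, which a peak of the opposite strand covers by at least 50% of the shorter one, made up 22.2% and 21.9% of the PTBP1 members and 18.3% and 18.5% of the IGF2BP2 members. No other region had as high a share. Of the members on the strand opposite to their gene, 57.6%, 58.7%, 45.7% and 47.3% were mirrored in the 4 lists, against 9.70% to 13.3% of those on the gene's own strand. Intron peaks opposite to their gene were mirrored more often, in 66.3%, 65.1%, 52.0% and 51.7%. The 2 peaks of a pair had the same IP and input reads in 23.8% and 30.1% of the PTBP1 cases with recovered reads and in 51.2% and 51.4% of the IGF2BP2 cases. Centres lay 11 to 14 nt apart in the median, and the centre of the minus-strand peak had the higher coordinate in 89.5% to 91.1% of the pairs. The pattern was not particular to the members. In other regions 40.4% and 43.3% of the PTBP1 cases and 57.3% and 56.7% of the IGF2BP2 cases had the same reads. Centres there lay 10 to 14 nt apart, with the minus-strand centre higher in 87.5% to 91.4%. LINC00987 and TERF2IP, printed above, are examples.

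Of 535 genes with at least 10 members of known strand, 312 had all of them on their own strand, 215 had both, and 8 had all of them on the opposite strand. None of the 266 peaks of these 8 genes was mirrored. LOC100129034 had 88 peaks, 20 and 24 in PTBP1 and 23 and 21 in IGF2BP2, and FLJ42627 had 57. In 5 of the 8, all peaks lay within a RefSeq gene of the peaks' own strand: LOC100130744 in ANKH, IRAIN in IGF1R, TIPARP-AS1 in TIPARP, TFAP2A-AS2 in TFAP2A and LOC101928034 in S100A3. These 5 pairs were named after their values were seen.

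**Figure D5:**
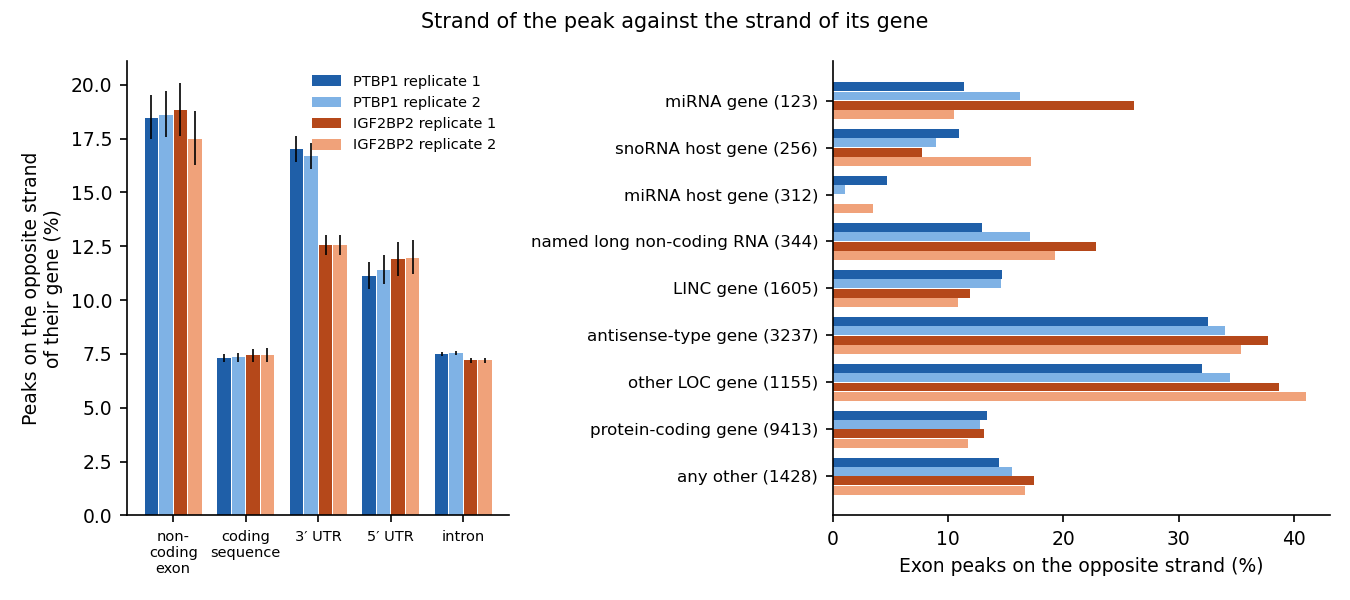
Left, share of peaks on the strand opposite to their gene (y axis, percent, with 95% Wilson intervals) by transcript region and library. Right, the same for non-coding exon peaks by class of gene, with the peaks of known strand over 4 lists in brackets. Non-coding exons reach 17.5% to 18.8%, 3′ UTRs 12.6% to 17.0%, and introns 7.20% to 7.56%.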

How the data were processed

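eCLIP peak lists of 4 IP libraries were used, 2 for PTBP1 and 2 for IGF2BP2, each called by the authors per library. HISAT2 and hg38 are named per the submitters' processing notes, and the sources used here give neither the peak caller nor the gene annotation. The deposited −log10 p of a peak runs from 0 to 400. The deposited log2 value, headed as a count per the file headers, is fractional and below 0 for some peaks. It equals a log2 of IP over input reads plus a constant per chromosome, which was inferred from the values. Each list also holds, per the file headers, how many nucleotides of a peak its annotated feature covers, a deposited length.

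Repeated entries were removed (3 to 55 per list). Constants were set so that the commonest value on each of 24 chromosomes is 3 IP reads to 1 input read, which gave whole reads within 1% for 97.5% to 98.1% of the eligible peaks. All log2 values on these chromosomes were then put on 1 scale per library. Where reads were recovered, p-values were recomputed with an exact binomial or chi-square test. Other peaks, including those at the ceiling of the −log10 p, kept the deposited value. Depth is known only as these reads per peak, and counting intervals take reads as independent. Regions join same-strand member peaks of both replicates that overlap by at least 1 nt. The unit of replication is the library: shares were compared by exact permutation, and peak density with limma 3.58.1 in R 4.3.3 (pseudocount 0.5, at least 10 peaks per gene and region, Benjamini-Hochberg adjustment over 23599 entries). Other work used Python 3.11.15, pandas 2.3.3 and scipy 1.17.1. The recovery of reads and the overlap search were tested on simulated data. RefSeq (GRCh38.p14) tables matched 3146 of 3436 genes.

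Named genes are, per protein, the 10 with the most regions, the 10 with the most enriched regions, the 5 leading enriched regions with at least 10 IP reads in both replicates, the 10 largest density differences in each direction, and the 3 genes with the most peaks in each class. The members, classes and lists were chosen with earlier results of these data known. Alternatives changed the thresholds, overlap, filters, scaling, pseudocount, replicates and strand.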

Additional observations from a re-analysis of the deposited data

Results flagged for a closer look

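In 6 contrasts both PTBP1 libraries moved one way and both IGF2BP2 libraries the other. None of these differences between the proteins was tested, and the values follow in the order PTBP1 replicates 1 and 2, then IGF2BP2 replicates 1 and 2.

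The enriched share of non-coding exon peaks minus that of coding sequence was -2.52, -2.27, 5.52 and 4.76 percentage points. Against 3′ UTRs it was 1.18, 1.11, -10.1 and -10.3 points.

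Among the members, ribosomal RNA genes differed from all other classes by -3.41, -3.28, 3.86 and 1.22 points in enriched share. This rested on 0 of 46, 0 of 42, 5 of 34 and 4 of 34 peaks. The Wilson interval of the class included the enriched share of all members in each list. The part of the scale of chromosome 21 was not tested. Pseudogenes, transcribed copies of other genes, differed by 3.48, 3.80, -3.77 and -3.23 points. Protein-coding genes, counted at exons of their non-coding transcripts, differed by -0.53, -0.96, 4.66 and 4.06 points.

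Within genes that RefSeq does not list as protein-coding, the median log2 of exon peaks minus that of intron peaks was 0.13, 0.094, -0.27 and -0.42.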

How the results depend on the processing

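Of the summary values recomputed under alternatives, 57 were counted as unchanged, 32 moved and 2 reversed. For the differences in shares only the direction was compared, so a change in size counted as unchanged. The difference in enriched share was -7.38 points, but -21.3 among peaks of at least 10 IP reads and -2.44 at a threshold of 4. Without ribosomal RNA, structured small RNA and protein-coding genes, chosen after seeing the data, the exon share of peaks differed by 0.104 points and the share of enriched peaks by 0.511 points, both now higher in PTBP1. Leaving out each library in turn gave differences of -0.144 to -0.0914, -0.149 to -0.0856 and -7.54 to -7.22 points for the exon share, the share of enriched peaks and the enriched share. Members found again in the other replicate (PTBP1 1 and 2, IGF2BP2 1 and 2) were 62.8%, 67.2%, 55.2% and 58.6% with an overlap of 50% of the shorter peak, and 79.0%, 84.1%, 87.3% and 87.3% among peaks of at least 10 IP reads. They were 59.0% and 62.0% in IGF2BP2 for peaks longer than 4 nt, and 63.5%, 67.8% and, for IGF2BP2 replicate 2, 59.0% without mirrored peaks. Enriched regions numbered 57 (PTBP1) and 86 (IGF2BP2) at a threshold of 4, and 304 and 266 on the deposited scale, where PTBP1 has more and 6.09% of its members are enriched. The causes were not tested.

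Density calls (PTBP1, then IGF2BP2) were 54 and 171 with a pseudocount of 2, 294 and 126 at 4 peaks or more, 115 and 133 with no filter, 115 and 95 among peaks of at least 10 IP reads, 28 and 77 without mirrored peaks, 79 and 155 for gene totals, and 13 and 56 on the gene's own strand, where fewer genes were tested. Leaving out a library gave 38 to 141 and 31 to 199, the lone library being assumed to vary like the others. MESD and SLX1A-SULT1A3 reversed for gene totals, at -0.20 and -0.49. With the replicate number as a block, 62 and 94 genes passed. Deviations of same-numbered libraries correlated at 0.0032 over all entries and 0.047 over exon entries. Neither value can show whether same-numbered libraries were handled together, and the labels do not say. Read depth, 5 IP reads in the median IGF2BP2 member, limits what can be called.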

Other observations

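MicroRNA host genes, long transcripts that carry a microRNA hairpin, held few enriched peaks. Their enriched shares were 0.893% (1 of 112 peaks) and 2.04% (2 of 98) in PTBP1, and 3.51% (2 of 57) and 1.69% (1 of 59) in IGF2BP2. All members had 3.40%, 3.26%, 10.9% and 10.6%, and the Wilson intervals of the class reach up to 4.88%, 7.14% and 11.9% in the first 3 lists, which includes the value of all members there. None of their 66 PTBP1 and 30 IGF2BP2 regions was enriched in both replicates, against 2.48% and 7.56% of all exon regions. MIRLET7BHG, the host of let-7b, held 30 and 27 PTBP1 peaks and 16 and 19 IGF2BP2 peaks. MIR600HG held 21 and 17 PTBP1 peaks and 6 and 1 IGF2BP2 peaks.

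RefSeq promoter windows held the sequence of some members, 348 and 343 in PTBP1 and 313 and 268 in IGF2BP2. The letters TTTC or TCTT, on the strand of the peak, stood in 17.2% and 13.4% of the PTBP1 members, against 16.2% and 15.8% of peaks of other regions in such windows. In IGF2BP2 the shares were 6.71% and 7.09%, against 6.95% and 7.22%. Few of these members were enriched (4, 3, 21 and 17 in the 4 lists).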
